A study of Danio rerio with 3 samples.

Results

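Interferon response genes were followed in epicardial cells of the zebrafish ventricle before and after injury. The group held 10 genes, found by symbol among the 32520 genes of the deposited counts, and each symbol matched 1 gene. The 5 effectors, products that act on virus or on the infected cell, were rsad2 (ENSDARG00000004952), isg15 (ENSDARG00000086374), mxa (ENSDARG00000021688), mxb (ENSDARG00000004953) and ifi45 (ENSDARG00000017489). The 5 regulators, transcription factors, were stat1a (ENSDARG00000006266), stat1b (ENSDARG00000076182), stat2 (ENSDARG00000031647), irf7 (ENSDARG00000045661) and irf9 (ENSDARG00000016457). The genes were chosen with earlier results on these cells in view, among them levels after injury, so differences between libraries are given as descriptions, without a test.

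Interferons are secreted cytokines best known from antiviral defence. They bind receptors coupled to Janus kinases, which phosphorylate STAT proteins. In mammals, phosphorylated STATs join IRF9 in a complex that enters the nucleus and switches on interferon-stimulated genes, among which are the effectors and the STAT and IRF genes themselves. In the mouse, interferon-stimulated genes are also known to be induced in the heart after infarction, without infection.

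All fish were 6-month-old EK zebrafish carrying tcf21:nucEGFP, a nuclear green fluorescent protein driven by regulatory sequence of tcf21, a widely used epicardial gene. Ventricles were taken at 3 or 7 days after partial ventricular amputation (3 dpa and 7 dpa) and from uninjured clutchmates (Ctrl), dissociated with Liberase, and sorted for live EGFP-positive cells. The cells were profiled with 10x Genomics 3′ chemistry, in which each captured transcript is counted once by its unique molecular identifier (UMI). There was 1 library per condition and the sources used here do not say how many hearts each one held, so no difference between conditions has a replicate check, and condition and library cannot be told apart.

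After filters on detected genes and mitochondrial counts, the Ctrl, 3 dpa and 7 dpa libraries kept 5098, 3905 and 6624 cells, whose median UMI totals were 4311, 9623 and 5435. Between 6 and 12 cell barcodes were shared by any pair of libraries. Cells were clustered without the genes of this group and the other pathway genes described below, and clusters were named from markers. There were 276, 925 and 1315 epithelial-like cells at Ctrl, 3 dpa and 7 dpa, and 4333, 2192 and 4872 mesenchymal-like cells in 4 clusters. Podxl, an apical membrane protein of epithelia, had levels between 5.08 and 8.80 UMIs per 10000 in the epithelial-like class, above the 0.0498 to 0.169 of the mesenchymal-like class. Pdgfra, a fibroblast receptor, had levels of 1.01 to 1.70 in the mesenchymal-like and 0.134 to 0.291 in the epithelial-like class. Another 496 cells at 3 dpa were like the activated epicardial progenitor cells (aEPCs) of the study, with 5 at Ctrl and 32 at 7 dpa. Mural-like cells (308, 106 and 138) and immune-like cells (93, 134 and 177) made up smaller classes. Tcf21 was at 7.24 to 16.9 UMIs per 10000 in the immune-like class, against 26.4 to 86.1 in the epithelial-like and mesenchymal-like classes. Its levels in aEPC-like cells at 3 dpa, 16.1, and in mural-like cells, 10.7 to 26.3, reached into the immune-like range.

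The effectors were at their highest at 3 dpa in both epicardial classes, and lower again at 7 dpa. Summed over the 5 effectors, epithelial-like cells held 0.792, 16.4 and 3.30 UMIs per 10000 at Ctrl, 3 dpa and 7 dpa, and mesenchymal-like cells 0.651, 11.2 and 1.11. The summed regulators spanned a narrower range, 1.73, 4.82 and 3.33 in epithelial-like cells and 3.23, 3.78 and 2.59 in mesenchymal-like cells. In both classes these sums were made up mostly of ifi45 and stat1a. At 3 dpa ifi45 held 17539 of the 24688 effector UMIs of epithelial-like cells, and stat1a 4154 of the 7253 regulator UMIs. Levels are the UMIs of a gene per 10000 UMIs of a class, and ranges in brackets are exact 95% intervals that cover counting error only.

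**Figure D1:**
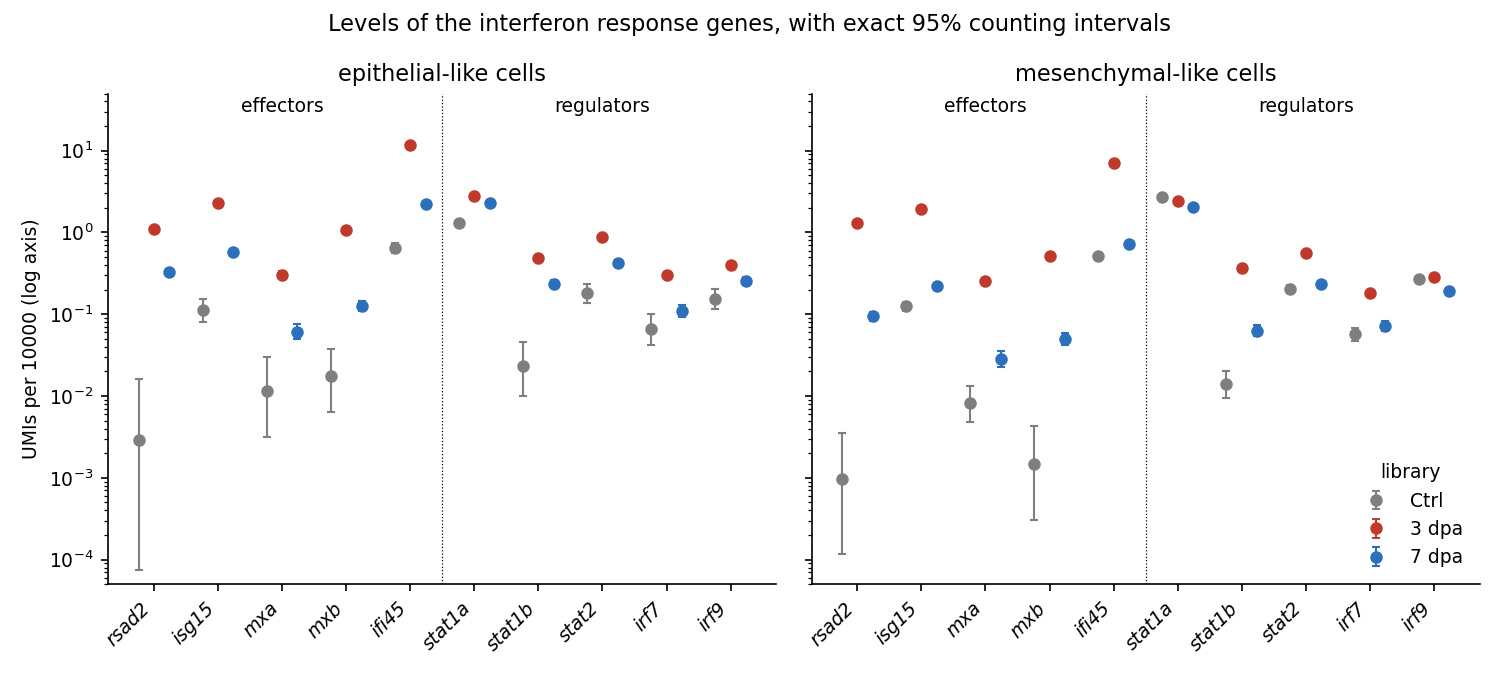
UMIs per 10000 of each gene (log axis) in epithelial-like and mesenchymal-like cells, with 1 point per library and bars for exact 95% counting intervals. The effectors on the left spread widely between libraries, with ifi45 between 0.646 and 11.7 in epithelial-like cells, while stat1a lay between 1.31 and 2.76.

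Ifi45, a gene named for its induction by interferon, was the most abundant effector in both classes. In epithelial-like cells the Ctrl level was 0.646 (0.564 to 0.737), the 3 dpa level 11.7 (11.5 to 11.8) and the 7 dpa level 2.21 (2.13 to 2.28). In mesenchymal-like cells it was 0.516, 7.15 and 0.719. The 3 dpa level was 18.0-fold (15.8 to 20.7) the Ctrl level in epithelial-like cells and 13.9-fold (13.0 to 14.8) in mesenchymal-like cells.

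Isg15 encodes a ubiquitin-like protein that is attached to other proteins. It was at 0.114, 2.26 and 0.576 UMIs per 10000 in epithelial-like cells and at 0.125, 1.94 and 0.219 in mesenchymal-like cells. The 3 dpa library was the high one in both classes, by 20-fold (14.6 to 28.1) and 15.6-fold (13.7 to 17.8) over Ctrl.

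Rsad2 encodes viperin, a radical SAM enzyme that in mammals makes a nucleotide analog which stops viral RNA synthesis. It was close to undetected in uninjured epicardial cells, with 1 UMI in the epithelial-like and 2 in the mesenchymal-like cells. At 3 dpa it held 1655 UMIs, a level of 1.1, in epithelial-like cells and 2554 UMIs, a level of 1.30, in mesenchymal-like cells. At 7 dpa the levels were 0.327 and 0.0946. With so few UMIs at Ctrl the ratios of 3 dpa over Ctrl were wide, 378 (67.7 to 14930) and 1328 (367 to 10970).

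Mxa and mxb encode Mx proteins, dynamin-like GTPases that block virus particles. They are neighbouring paralogs in the RefSeq annotation of GRCz12tu. Reads shared by paralogs could have been lost in counting, here and for stat1a and stat1b, and this was not tested. Mxb was at 0.0175, 1.08 and 0.127 UMIs per 10000 in epithelial-like cells and at 0.00147 (3 UMIs), 0.510 and 0.0498 in mesenchymal-like cells. Mxa had the lowest 3 dpa level of the 5 effectors in both classes, 0.304 and 0.253, over Ctrl levels of 0.0116 and 0.00831. At 3 dpa, mxb had 3.55 UMIs for each of mxa in epithelial-like cells and 2.02 in mesenchymal-like cells.

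Among the regulators, stat1b, stat2 and irf7 were higher at 3 dpa in both classes. Stat1a and irf9 were higher there in epithelial-like cells but not in the pooled mesenchymal-like cells, whose clusters, given at the end, differed in direction. Stat1a was the most abundant regulator, at 1.31, 2.76 and 2.30 UMIs per 10000 in epithelial-like cells and 2.68, 2.39 and 2.02 in mesenchymal-like cells. The ratio of 3 dpa over Ctrl was therefore 2.11 (1.92 to 2.33) in epithelial-like and 0.892 (0.858 to 0.927) in mesenchymal-like cells, and the difference between these ratios was not tested. On the log2 scale the epithelial-like ratio dropped from 1.08 to 0.79 at a clustering resolution of 0.2, to 0.95 with TMM scaling and to 0.93 without ribosomal and mitochondrial genes, below the 2-fold mark.

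Stat1b was rare at Ctrl, at 0.0233 UMIs per 10000 in epithelial-like and 0.0142 in mesenchymal-like cells. It reached 0.487 and 0.366 at 3 dpa, which was 20.9-fold (10.6 to 48.6) and 25.8-fold (17.8 to 38.8) the Ctrl level, and stood at 0.234 and 0.0631 at 7 dpa. These ratios were in the range of those of isg15, mxa and ifi45. For each stat1a UMI, epithelial-like cells held 0.0178, 0.176 and 0.102 of stat1b at Ctrl, 3 dpa and 7 dpa, and mesenchymal-like cells 0.00528, 0.153 and 0.0312.

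Stat2, a signal transducer of the type I interferon response, was at 0.180, 0.869 and 0.427 UMIs per 10000 in epithelial-like cells and at 0.205, 0.561 and 0.236 in mesenchymal-like cells. Its 3 dpa levels were 4.82-fold (3.73 to 6.32) and 2.74-fold (2.45 to 3.08) those at Ctrl, and the latter, 1.46 on the log2 scale, was 0.71 with log normalization. Irf7, which in mammals drives the interferon genes themselves, was at 0.0669, 0.301 and 0.110 in epithelial-like and at 0.0567, 0.180 and 0.0720 in mesenchymal-like cells. Its mesenchymal-like ratio of 3 dpa over Ctrl, 1.67 on the log2 scale, was 0.39 when clustering kept the interferon genes and 0.29 with log normalization. Irf9, the DNA-binding member of the complex with the STATs, was at 0.154, 0.402 and 0.258 in epithelial-like cells. In mesenchymal-like cells irf9 was at 0.272, 0.285 and 0.192, and its 3 dpa and Ctrl levels did not differ beyond their intervals (ratio 1.05, 0.930 to 1.18).

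Counted over the members, all 10 had a 3 dpa level at least 2-fold the Ctrl level in epithelial-like cells, where 26.7% of the 12175 genes with at least 20 UMIs did. In mesenchymal-like cells 8 of 10 did, against 17.9% of 13497 genes. The median log2 ratio was 4.71 over the effectors and 2.17 over the regulators in epithelial-like cells, beside 0.37 over all genes. In mesenchymal-like cells it was 4.93 over the effectors, 1.46 over the regulators and 0.18 over all genes. Over all cells, with no use of clusters, the ratios of 3 dpa over Ctrl were 13.9 for ifi45, 15.3 for isg15, 165 for mxb, 21.4 for stat1b, 3.24 for stat2 and 0.918 for stat1a.

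From 3 dpa to 7 dpa, 8 of the 10 genes were at least 2-fold lower in epithelial-like cells, with stat1a and irf9 the exceptions, where 18.4% of 13078 genes were. The same number was lower in mesenchymal-like cells, where 9.33% of 13871 genes were, again without stat1a and irf9. Several regulators lost the 2-fold mark under other settings. In epithelial-like cells stat2, at a log2 ratio of -1.03, was between -0.99 and -0.72 in 5 alternatives, stat1b, at -1.06, was -0.57 at resolution 0.2 and -0.77 with TMM, and irf7, at -1.45, was -0.60 with all variable genes and -0.83 with log normalization. In mesenchymal-like cells stat2 was -0.65 and irf7 -0.03 with log normalization, in place of -1.25 and -1.32. With no batch term they were -0.96 and -0.92. Irf7 was also -0.24 with all variable genes and -0.99 as a mean over cells. The median log2 ratio of the effectors was -2.31 in epithelial-like and -3.31 in mesenchymal-like cells, with all genes at -0.25 and -0.06. The 7 dpa levels had not all come back to those of Ctrl. In epithelial-like cells 7 of 10 genes were still at least 2-fold above Ctrl (10.0% of genes), among them isg15 at 5.07-fold, mxb at 7.25-fold and ifi45 at 3.42-fold. In mesenchymal-like cells 4 of 10 were (7.69% of genes), namely rsad2, mxa, mxb and stat1b, while ifi45 was at 1.39-fold and isg15 at 1.76-fold. With log normalization, the cells named mesenchymal-like held 0.445 effector UMIs per 10000 at 7 dpa, against 0.647 at Ctrl. Rsad2 had 2 UMIs in those cells at Ctrl and at 7 dpa alike. The unnamed cluster of that setting, described below, held 6.60 at 7 dpa. The counts for 7 dpa over Ctrl were not rerun under the alternatives.

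**Figure D2:**
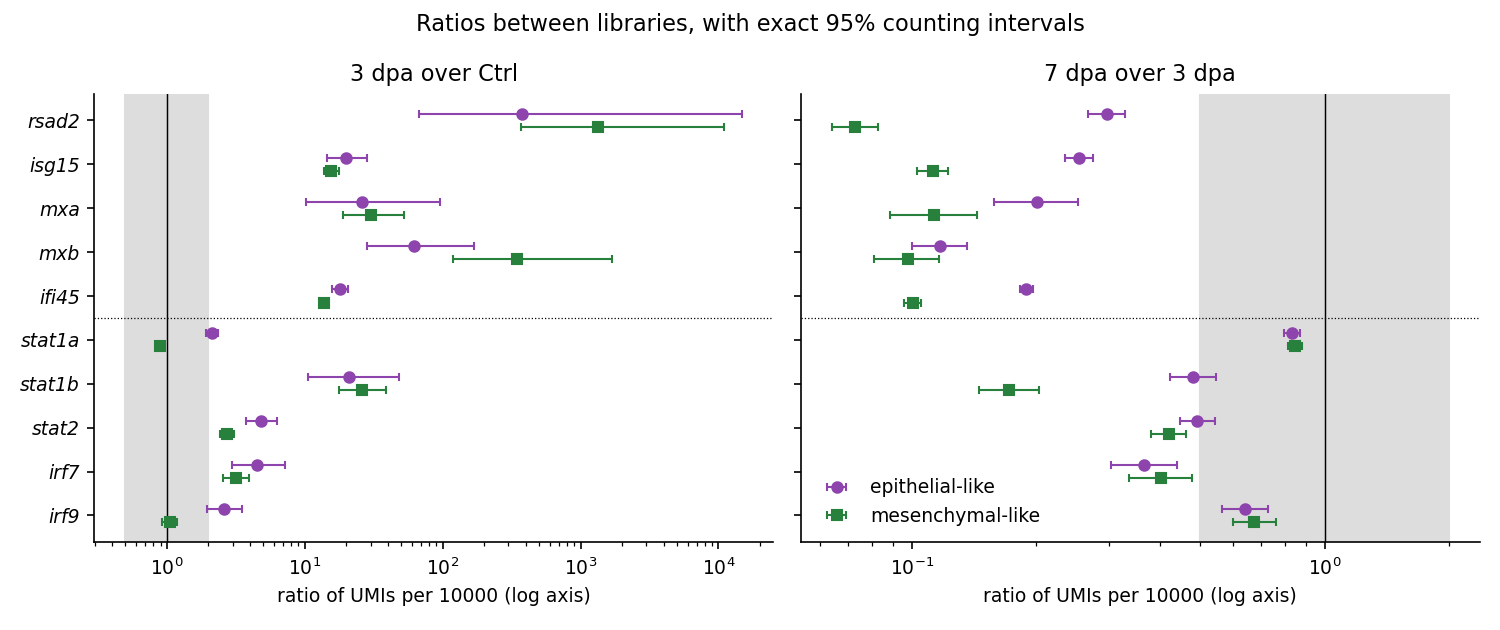
Ratio of UMIs per 10000 between libraries (log axis) for each gene in epithelial-like and mesenchymal-like cells, with exact 95% counting intervals and ratios between 0.5 and 2 shaded. For 3 dpa over Ctrl the mesenchymal-like points of stat1a (0.892) and irf9 (1.05) sit in the shaded band, beside stat1b at 25.8.

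More members were at least 2-fold higher in epithelial-like than in mesenchymal-like cells at 7 dpa than at 3 dpa, a change that was not tested and that depends on how the classes were drawn: with log normalization the summed effectors at 3 dpa were at 17.8 in epithelial-like and 1.65 in mesenchymal-like cells. As reported, at 3 dpa, 1 of 10 members was at least 2-fold higher in epithelial-like than in mesenchymal-like cells (15.6% of genes). It was mxb, at 2.12-fold (1.96 to 2.30). The pooled level of rsad2 was slightly lower in epithelial-like cells at 3 dpa, at 0.847-fold (0.796 to 0.902). With cells cut to equal depth, as described below, rsad2 averaged 0.2145 UMIs per epithelial-like and 0.1939 per mesenchymal-like cell at 3 dpa. It was detected in 8.25% and 5.13% of these cells, so the direction of the rsad2 difference depended on how it was measured. At 7 dpa, 6 of 10 members were at least 2-fold higher in epithelial-like cells (10.1% of genes). They were rsad2 at 3.45-fold, isg15 at 2.63-fold, mxa at 2.14-fold, mxb at 2.54-fold, ifi45 at 3.07-fold and stat1b at 3.71-fold. Among members with at least 20 UMIs, the largest gap at Ctrl ran the other way, with stat1a in epithelial-like cells at 0.487-fold (0.442 to 0.537) the mesenchymal-like level. Median depth per cell also differed, at 11137, 14960 and 9849 UMIs in epithelial-like and 4293, 6829 and 4774 in mesenchymal-like cells, and its part in these ratios of pooled levels was not tested.

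The balance of effectors to regulators differed between the libraries in each of the larger classes. In the epithelial-like and mesenchymal-like classes, where ifi45 and stat1a made up most of the sums, it mainly compared these 2 genes. Epithelial-like cells held 0.457 effector UMIs per regulator UMI at Ctrl, 3.40 at 3 dpa and 0.990 at 7 dpa. Mesenchymal-like cells held 0.202, 2.95 and 0.430. Mural-like cells held 0.0708, 2.48 and 0.759, and immune-like cells 0.221, 2.09 and 0.633. In all 4 classes effector transcripts outnumbered regulator transcripts at 3 dpa and not at Ctrl or 7 dpa, with epithelial-like cells at 7 dpa near parity (0.951 to 1.03).

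**Figure D3:**
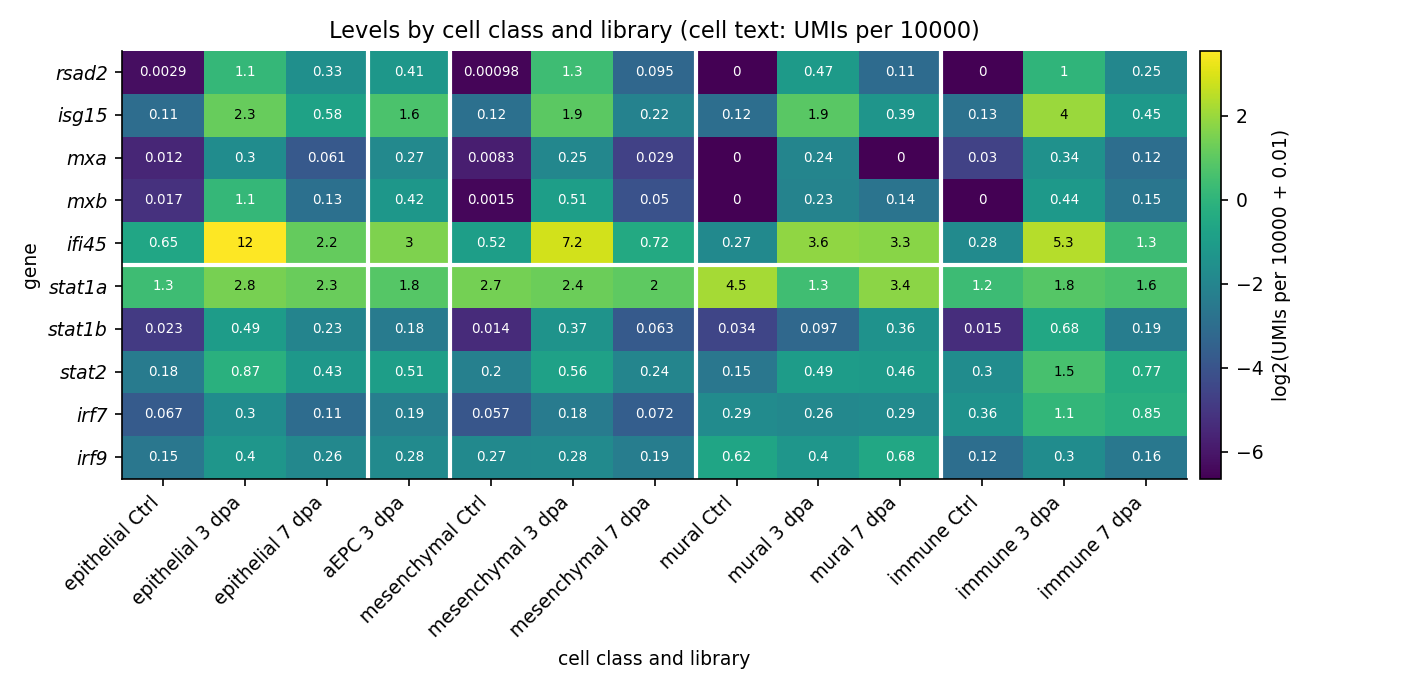
Levels of the 10 genes (rows) in each cell class and library with at least 50 cells (columns), with UMIs per 10000 written in the cells and colour for log2(UMIs per 10000 + 0.01). The 3 dpa columns are the high ones for the effectors in every class that has them, and irf7 is highest in the immune-like columns.

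Placed in order by their summed effectors, the 3 dpa groups came first. Epithelial-like cells led with 16.4 (16.2 to 16.6) UMIs per 10000, followed by mesenchymal-like (11.2, 11 to 11.3) and immune-like cells (11.1, 10.5 to 11.8), whose intervals overlap. Mural-like cells at 3 dpa had 6.39 (5.88 to 6.92) and aEPC-like cells 5.64 (5.51 to 5.76). Mural-like cells at 7 dpa, at 3.92 (3.22 to 4.73), and epithelial-like cells at 7 dpa, at 3.30 (3.20 to 3.39), did not differ beyond their intervals. Immune-like and mesenchymal-like cells at 7 dpa followed with 2.23 and 1.11. The Ctrl groups of these classes came last, from 0.792 in epithelial-like down to 0.394 in mural-like cells.

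The aEPC-like cells, a population nearly limited to the 3 dpa library, had less of the effectors than the epithelial-like cells of that library. Ifi45 was at 2.96 UMIs per 10000, 0.254-fold (0.246 to 0.263) the epithelial-like level. Rsad2 (0.376-fold), mxb (0.384-fold) and stat1b (0.365-fold) were also at least 2-fold lower, which made 4 of 10 members (10.1% of genes). Isg15 at 1.58, 0.696-fold, and mxa at 0.269, 0.885-fold (0.770 to 1.02), lay closer to the epithelial-like cells. The border between these 2 classes depended on the clustering. With log normalization, 381 of the 925 epithelial-like cells at 3 dpa fell into the aEPC-like class. At a resolution of 0.2 no cluster was named aEPC-like, and 1405 cells at 3 dpa were epithelial-like. The ratios here are for the reported clusters only.

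In immune-like cells irf7 had its highest levels, 0.359, 1.07 and 0.847 UMIs per 10000 at Ctrl, 3 dpa and 7 dpa, which were 6.34-fold, 5.96-fold and 11.8-fold the mesenchymal-like levels. Isg15 was at 0.135, 4.02 and 0.447 there. Of the 10 members, 9 were at least 2-fold higher at 3 dpa than at Ctrl in this class (15.6% of genes), with stat1a at 1.44-fold the exception. Rsad2 had no UMI at Ctrl and a level of 1.01 at 3 dpa, at least 22.5-fold higher than the level of 3 UMIs in the Ctrl cells.

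Immune markers were measured within the epicardial classes. Ptprc, the pan-leukocyte phosphatase CD45, had a level between 3.81 and 4.18 in the immune-like class, and 3, 1 and 4 UMIs in all epithelial-like cells and 4, 8 and 14 in all mesenchymal-like cells of the 3 libraries. The macrophage gene mpeg1.1 had 0, 2 and 0 UMIs in epithelial-like and 2, 4 and 2 in mesenchymal-like cells. Laptm5, a leukocyte lysosomal gene, had 7, 1 and 2 UMIs in epithelial-like and 1, 37 and 16 in mesenchymal-like cells, where it was highest at 3 dpa as the effectors were. Cd74a, the MHC class II invariant chain, had 82, 30 and 195 and 565, 302 and 963 UMIs. The summed level of 16 immune markers lay between 184 and 243 UMIs per 10000 in the immune-like class, against 0.308 to 0.809 in the epithelial-like and 0.688 to 1.06 in the mesenchymal-like class. Cells with a UMI of ptprc, coro1a, laptm5 or mpeg1.1 were left out in 1 alternative, a choice made after seeing the data. At 3 dpa it kept 920 of 925 epithelial-like and 2170 of 2192 mesenchymal-like cells. The counts of members at least 2-fold higher at 3 dpa were again 10 and 8, which so small a removal could hardly change. The part of leukocyte transcripts in the effector levels was not tested. Immediate early and heat shock genes, which respond to handling, were lowest in the 3 dpa library, at a summed 59.9 UMIs per 10000 in epithelial-like and 111 in mesenchymal-like cells, against 107 and 253 at Ctrl. Effector proportions also differed between the classes at 3 dpa: ifi45 had 5.15 UMIs (4.96 to 5.34) per isg15 UMI in the epithelial-like class, 3.68 (3.55 to 3.82) in the mesenchymal-like class, 1.88 in aEPC-like and mural-like, and 1.32 (1.16 to 1.51) in the immune-like class.

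In mural-like cells stat1a was lowest at 3 dpa, where the effectors were highest. Its level was 4.47, 1.33 and 3.39 UMIs per 10000, so that 3 dpa was 0.298-fold (0.238 to 0.370) of Ctrl. Ifi45 was at 0.274, 3.56 and 3.28. Median depth in mural-like cells was 1547, 3328 and 1471 UMIs. With each cell cut to 1800 UMIs, as described below, stat1a averaged 0.733 UMIs in 105 Ctrl cells and 0.417 in 72 at 3 dpa. Mxa had no UMI in those 72 cells, and the part of depth was not tested. Of the 9 members with enough UMIs, 6 were at least 2-fold higher at 3 dpa (26.6% of genes) and stat1a was the 1 that was lower (20.1% of genes). The 7 dpa level of ifi45 was 0.921-fold (0.723 to 1.16) that at 3 dpa in these cells, with 106 cells at 3 dpa and 138 at 7 dpa behind it. Epicardial markers did not go 1 way in these cells. Podxl, with 2, 55 and 2 UMIs, and pdgfra, with 8, 31 and 3, were highest at 3 dpa. Tcf21 was lowest there, at 26.3, 10.7 and 22.7 UMIs per 10000. The part of epicardial transcripts in the effector levels was not tested.

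The 4 mesenchymal-like clusters did not carry the effectors evenly. At 3 dpa the summed effectors were at 15.5 UMIs per 10000 in the cluster led by ptger2b, 11.8 in that led by tnfsf12, 4.99 in that led by inhbb and 1.63 in that led by fndc1. Median depth had the same order, at 10146, 9980, 4985 and 3060 UMIs. Cut to 1800 UMIs, as described below, 711, 391, 902 and 64 cells held 1504, 881, 825 and 21 effector UMIs. Per cell, tnfsf12 was then ahead of ptger2b, and the part of depth was not tested. The ptger2b cluster had ifi45 at 0.768, 10.1 and 1.1 and stat1a at 4.30, 2.98 and 3.29 at Ctrl, 3 dpa and 7 dpa. The inhbb cluster had rsad2 at 0.00147 and 0.493 at Ctrl and 3 dpa, with no UMI in 2224 cells at 7 dpa, and its summed effectors at 7 dpa, 0.439, were close to the 0.516 of Ctrl, with overlapping intervals. The tnfsf12 cluster, by contrast, had pooled levels of all 5 effectors at least 2-fold above Ctrl at 7 dpa (8.84% of genes). Its summed effectors were at 0.392, 11.8 and 1.59, and rsad2 had no UMI at Ctrl. A small share of its cells held most of the 7 dpa effector UMIs. After the thinning described below, 19 of 1044 cells had at least 2 effectors and held 72.3% of these UMIs. Rsad2 was detected in 8 of the 1044 cells, mxa in 7, mxb in 8, isg15 in 23 and ifi45 in 62. In the fndc1 cluster rsad2 had 0, 0 and 1 UMIs, and ifi45 29, 42 and 6.

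The values of the mesenchymal-like class at 3 dpa depended on how it was drawn. With log normalization in place of SCTransform, 1053 of its 2192 cells at 3 dpa fell into a cluster that met no name, which held 9, 1122 and 425 cells at Ctrl, 3 dpa and 7 dpa. That cluster held 13.7 effector UMIs per 10000 at 3 dpa, at a median of 11160 UMIs per cell. The 1047 cells named mesenchymal-like at 3 dpa held 1.65 (1.54 to 1.77), at a median of 4088 UMIs, against 0.647 in that class at Ctrl. In that class 4 members were then counted as at least 2-fold higher at 3 dpa. Rsad2 (2 UMIs at Ctrl and 10 at 3 dpa) and mxb (3 and 5) had too few UMIs to be counted. Their levels were 0.000984 and 0.0199 for rsad2 and 0.00148 and 0.00995 for mxb. The median log2 ratio of the effectors, over isg15, mxa and ifi45 only, was 2.01. The 556 cells then named epithelial-like at 3 dpa held 17.8 effector UMIs per 10000. Their median was 10702 UMIs per cell, below that of the unnamed cluster. The unnamed cluster had more effectors and more depth than the cells named mesenchymal-like, and the part of depth was not tested.

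The share of cells in which a gene is detected depends on depth. To compare shares of cells at unequal depth, a random draw of 1800 UMIs was taken from every cell, without the 2, 16 and 15 epithelial-like and 254, 124 and 292 mesenchymal-like cells that held fewer. Ifi45 was detected in 6.93%, 34.8% and 13.2% of thinned epithelial-like cells at Ctrl, 3 dpa and 7 dpa, against 21.0%, 61.2% and 29.4% before thinning. Rsad2 was detected in 0 of 274, 8.25% and 1.69% of them, and stat1a in 16.8%, 36.0% and 32.5%. In mesenchymal-like cells ifi45 was detected in 7.01%, 25.7% and 4.76%, and stat1a in 32.9%, 31.9% and 26.9%. No class is known to lack these genes, so the Ctrl share of a class is the only background given here.

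Cells with several effectors made up a small share that was largest at 3 dpa. At least 2 of the 5 effectors were detected in 1 of 274 epithelial-like cells of the Ctrl library (0.365%, 0.00924 to 2.02). The 3 dpa library had 162 such cells of 909 (17.8%, 15.4 to 20.5), and the 7 dpa library 48 of 1300 (3.69%, 2.73 to 4.87). In mesenchymal-like cells they were detected in 18 of 4079 (0.441%), 234 of 2068 (11.3%, 9.98 to 12.8) and 34 of 4580 (0.742%). At 3 dpa the share was 10.7% (8.14 to 13.8) in aEPC-like, 15.3% (9.18 to 23.4) in immune-like and 8.33% in mural-like cells. All 5 effectors were detected in 7 of 909 epithelial-like cells at 3 dpa, and none of them in 60.2%.

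**Figure D4:**
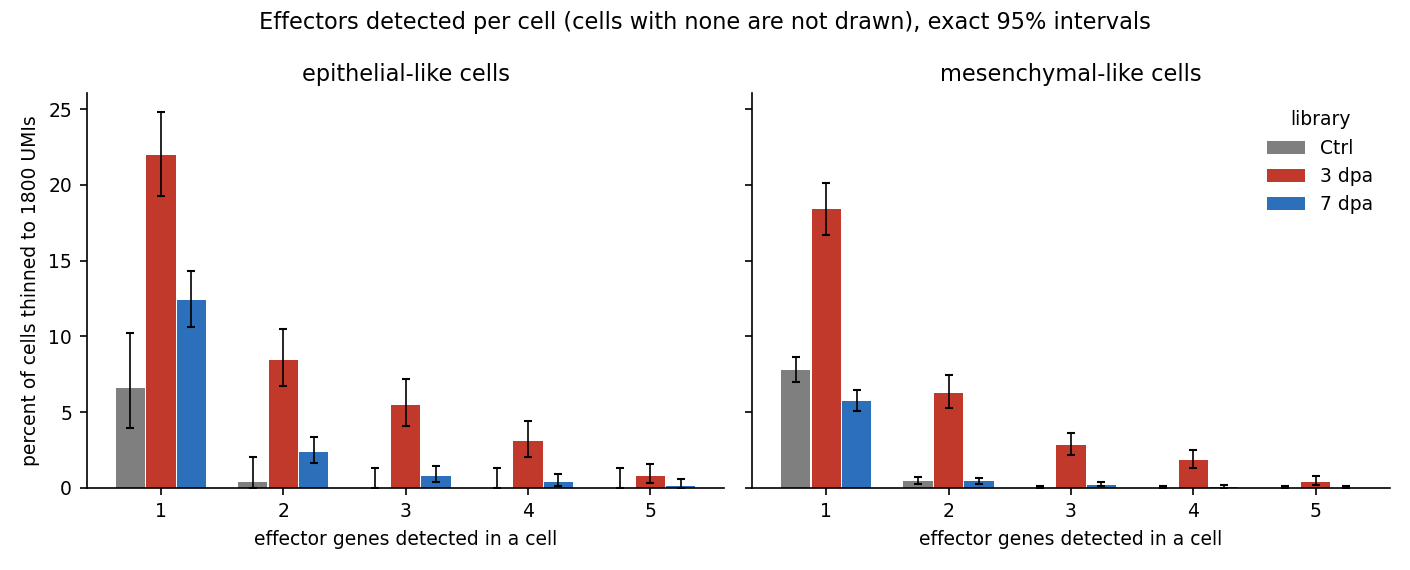
Percent of epithelial-like and mesenchymal-like cells, thinned to 1800 UMIs, with 1 to 5 effectors detected in each library, with exact 95% binomial intervals. At 3 dpa 22.0% of epithelial-like cells had 1 effector and 8.47% had 2, and no Ctrl cell had more than 2.

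These cells, chosen by their effector UMIs, by that choice hold many of them, and the shares are a description. At Ctrl they held 28.1% of the effector UMIs in epithelial-like and 12.8% in mesenchymal-like cells. At 3 dpa the epithelial-like cells with at least 2 effectors held 81.7% of the effector UMIs of their class, and the mesenchymal-like ones 77.2%. At 7 dpa the shares were 64.2% and 47.9%. With a higher mark at 3 dpa, 82 of 909 epithelial-like cells (9.02%) had at least 10 effector UMIs and held 67.2%, and 98 of 2068 mesenchymal-like cells (4.74%) held 61.0%. The Fano factor, the variance over the mean of UMIs per thinned cell, which is 1 for counts scattered at random, was 11.1 for ifi45, 6.74 for isg15 and 4.65 for rsad2 in epithelial-like cells at 3 dpa. It was 2.59 for irf7 and between 1.14 and 1.19 for the other regulators. Mxb, at 2.32, was below irf7, and mxa, at 1.0, was below every regulator. Mean UMIs per thinned cell were 2.02 for ifi45, 0.166 for mxb, 0.0462 for mxa and 0.0484 for irf7. The part of the mean in the Fano factor was not tested.

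Effectors tended to be detected in the same cells, though many cells held the most abundant one without the others. Among the 316 epithelial-like cells with ifi45 at 3 dpa, 21.8% had rsad2 and 32.0% had isg15. Of the 75 epithelial-like cells with rsad2 at 3 dpa, 92% had ifi45, against 29.6% of the other cells, 64.0% had isg15, against 10.2%, and 50.7% had mxb, against 5.76%. Of 106 mesenchymal-like cells with rsad2, 93.4% had ifi45, against 22.0%, and 67.9% had isg15, against 7.80%. All 10 effector pairs were found together more often than the product of their shares in both classes at 3 dpa, with a median odds ratio of 8.98 in epithelial-like and 15.0 in mesenchymal-like cells. The 25 pairs of an effector with a regulator had a median of 3.36 and 2.96, and the pairs of regulators 1.71 and 1.51. Pairs share genes and cells, so these medians are a description.

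The regulators differed in how far they went with the effectors from cell to cell. In epithelial-like cells at 3 dpa, a UMI of any regulator was found in 41.5% (37.3 to 45.8) of the cells with no effector, in 56.0% of those with 1 and in 69.1% (61.4 to 76.1) of those with at least 2, at median depths before thinning of 14535, 15556 and 15904 UMIs. Stat1b was found more often in cells with more effectors, at 2.01% (1.01 to 3.57), 10.0% and 28.4% (21.6 to 36.0). Stat2 was at 6.76%, 19.0% and 27.8%, and irf7 at 1.1%, 2.0% and 10.5%. Stat1a spanned less, at 32.9%, 41.0% and 40.1%. Irf9 was at 7.68% (5.59 to 10.2), 5.0% and 4.32% (1.75 to 8.70), intervals that overlap, and its odds ratios with the 5 effectors were all below 1, from 0.193 with isg15 to 0.746 with ifi45. The other groups differed: irf9 had odds ratios of 1.11 to 1.70 with the effectors in mesenchymal-like cells at 3 dpa, and of 1.34 to 2.03 with the effectors other than mxa in epithelial-like cells at 7 dpa. In mesenchymal-like cells at 7 dpa its odds ratio was 2.37 with ifi45 and 0.382 with isg15.

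**Figure D5:**
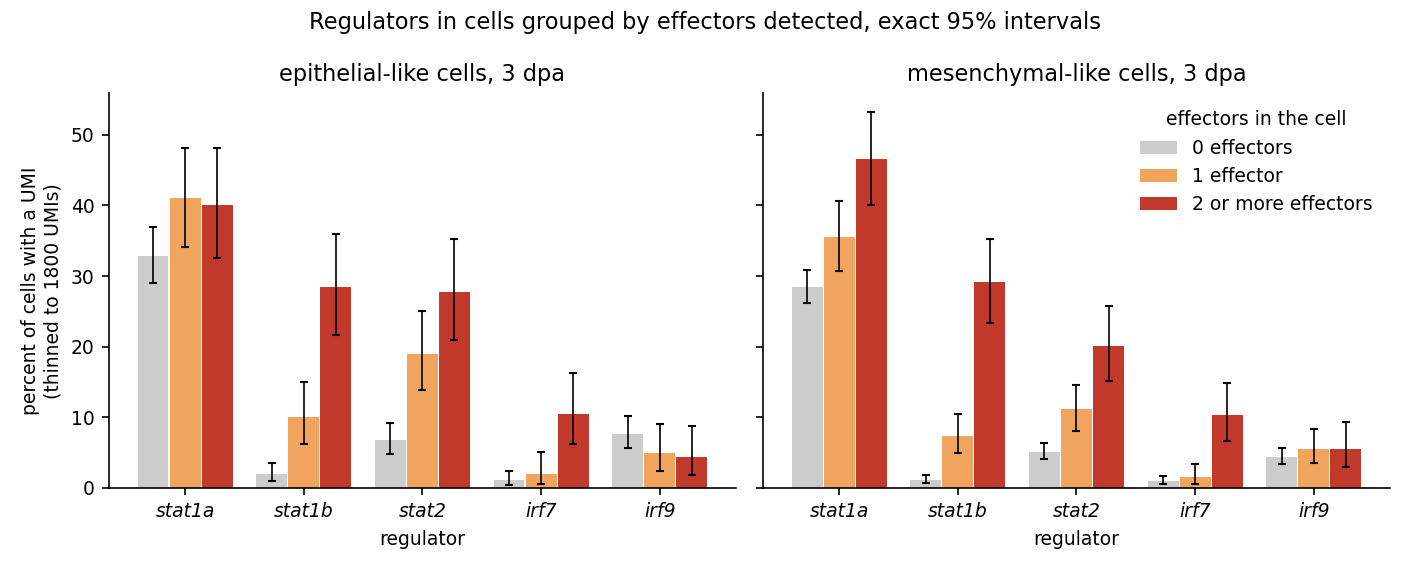
Percent of cells at 3 dpa with a UMI of each regulator, in epithelial-like and mesenchymal-like cells thinned to 1800 UMIs and grouped by 0, 1 or at least 2 effectors detected, with exact 95% binomial intervals. Stat1b goes from 2.01% to 28.4% in epithelial-like and from 1.1% to 29.1% in mesenchymal-like cells, and irf9 lies between 4.32% and 7.68%.

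Mesenchymal-like cells at 3 dpa gave the same order for stat1b, at 1.1%, 7.37% and 29.1%, and for stat2, at 5.09%, 11.1% and 20.1%. Stat1a was at 28.5%, 35.5% and 46.6% there, a wider span than in epithelial-like cells, and irf9 at 4.4%, 5.53% and 5.56%. Depth before thinning was also higher in this class in cells with more effectors, with medians of 6760, 7735 and 10499 UMIs, and its part was not tested. At 7 dpa, stat1b was found in 31.2% of the 48 epithelial-like cells with at least 2 effectors, against 1.47% of those with none, and in 44.1% of the 34 such mesenchymal-like cells, against 0.490%.

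A mean profile was taken over the effectors, from the log2 levels of each gene centred on its mean. Across the 15 groups of a class and a library with at least 50 cells, stat1b and stat2 were the regulators closest to it. Their correlations were 0.906 and 0.904, followed by irf7 at 0.580, irf9 at 0.198 and stat1a at -0.113. The groups share 3 libraries and 1 depth each, so these are descriptions. Among genes with at least 200 UMIs and outside the members, those most like the effectors were si:dkey-188i13.9 (0.954), si:dkey-40g16.6 (0.942), lgals17 (0.941), wu:fj29h11 (0.940) and CU984600.2 (0.940). Lgals17, a galectin gene by its name, was at 0.0873, 0.634 and 0.195 UMIs per 10000 in epithelial-like cells and at 0.0469, 0.691 and 0.0878 in mesenchymal-like cells. Those most like the mean profile of the regulators, taken in the same way, were wu:fj29h11 (0.901), cxxc1a (0.878), nudt5 (0.863), si:ch73-252i11.1 (0.858) and CU984600.2 (0.855).

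Among genes upstream of the members, the median log2 ratio of 3 dpa over Ctrl was -0.08 over the receptors and 0.41 over the kinases and inhibitors in epithelial-like cells, and -0.32 and -0.39 in mesenchymal-like cells, beside 0.37 and 0.18 over all genes. The interferon ligands were scarce: ifnphi1 was at 0.0186 to 0.0276 UMIs per 10000 in both epicardial classes and all libraries. Ifng1, the gene of interferon gamma, was at 0.285, 0.131 and 0.282 in immune-like cells and had at most 1 UMI in each library in the epithelial-like and mesenchymal-like classes. Ifnphi2 had 15 UMIs in immune-like cells at 3 dpa and none there in the other libraries. Of 9 receptor symbols listed, 5 were found among the counts. None of these was at least 2-fold higher or lower at 3 dpa in epithelial-like cells (4 with enough UMIs) or mesenchymal-like cells (5). Over all genes, 26.7% were higher and 9.14% lower in epithelial-like cells, and 17.9% and 9.69% in mesenchymal-like cells, so a count of none over so few genes says little. The receptor gene ifngr2 was at 0.311, 0.331 and 0.297 in epithelial-like cells crfb1 at 0.134, 0.108 and 0.158, and ifngr1l at 0.0349, 0.0292 and 0.0392.

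The lists of other pathway genes held 90 genes of the deposited counts. Of 6 kinase and inhibitor genes, 2 were at least 2-fold higher at 3 dpa in epithelial-like and 1 in mesenchymal-like cells, beside 26.7% and 17.9% of all genes. Usp18, which removes ISG15 from proteins and dampens interferon signalling in mammals, was the 1 higher in both, at 5.34-fold (2.23 to 16.8) and 9.31-fold (5.85 to 15.6), and is named after its values were seen. Jak1, a receptor-bound kinase, was at 0.730, 0.946 and 0.754 UMIs per 10000 in epithelial-like cells and at 2.0, 1.37 and 1.45 in mesenchymal-like cells. Socs1a, a feedback inhibitor, was at 0.221, 0.139 and 0.14 and at 0.358, 0.259 and 0.289. Tyk2, a kinase partner of jak1, was at 0.0640, 0.128 and 0.0915 in epithelial-like cells, where it was the other higher gene, and at 0.0772, 0.0772 and 0.0738 in mesenchymal-like cells. Of the IRF genes outside the members, 1 of 7 was at least 2-fold higher in each class, beside the same shares. Irf2 was at 0.777, 0.789 and 1.14 in epithelial-like and at 0.648, 0.639 and 0.669 in mesenchymal-like cells. Irf8, a factor of myeloid cells, was at 0.119, 0.198 and 0.312 and at 1.1, 0.823 and 1.22. Irf1b was at 0.221, 0.221 and 0.224 and at 0.662, 0.403 and 0.389.

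Nucleic acid sensors and their adaptors had a median log2 ratio of 3 dpa over Ctrl of 1.06 in epithelial-like and 0.73 in mesenchymal-like cells. Of 10 with enough UMIs, 5 were at least 2-fold higher at 3 dpa in epithelial-like cells and none lower, beside 26.7% and 9.14% of all genes. In mesenchymal-like cells 4 of 11 were higher and 1 lower, beside 17.9% and 9.69%. Trim25, a ubiquitin ligase of RNA sensing, was at 0.131, 0.291 and 0.229 UMIs per 10000 in epithelial-like and at 0.135, 0.192 and 0.158 in mesenchymal-like cells. Dhx58, a helicase that tunes RNA sensing, was at 0.0146, 0.187 and 0.0860 UMIs per 10000 in epithelial-like cells and at 0.0459, 0.269 and 0.0509 in mesenchymal-like cells. Ifih1, the sensor MDA5, was at 0.0640, 0.170 and 0.0791 and at 0.0259, 0.131 and 0.0523.

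Other interferon-stimulated genes were also higher at 3 dpa. Of the other antiviral effectors, 13 of 17 were at least 2-fold higher at 3 dpa in epithelial-like cells and 13 of 18 in mesenchymal-like cells, beside 26.7% and 17.9% of all genes. None of these genes was at least 2-fold lower, beside 9.14% and 9.69% of all genes, with median log2 ratios of 1.38 and 1.65. Rnf213a, a large ubiquitin ligase, was at 0.893, 2.33 and 1.63 UMIs per 10000 in epithelial-like cells and at 0.730, 2.18 and 0.964 in mesenchymal-like cells. Xaf1 was at 0.308, 0.663 and 0.388 and at 0.171, 0.561 and 0.229, while isg20, an RNA exonuclease, was at 0.317, 0.298 and 0.239 and at 0.505, 0.351 and 0.358. Of the antigen presentation genes, 15 of 25 and 15 of 24 were at least 2-fold higher, beside the same 26.7% and 17.9%. Mhc1zka, named after its values were seen, was the 1 that was lower, at 0.236-fold (0.138 to 0.403) in epithelial-like cells. B2m, the light chain of MHC class I, was at 5.94, 10.1 and 10.7 in epithelial-like and at 4.98, 8.43 and 8.13 in mesenchymal-like cells. Its 7 dpa levels were 1.80-fold and 1.63-fold those of Ctrl. B2ml, a related gene, was at 7.39, 5.78 and 8.60 in epithelial-like cells. Mhc1zba, an MHC class I gene, was at 4.79, 3.18 and 4.88 in epithelial-like and at 5.81, 4.71 and 5.61 in mesenchymal-like cells.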

How the data were processed

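Per the submitters' processing notes, the authors ran Cell Ranger 3.0.2 on GRCz10 and deposited unnormalized UMI counts of every gene in each droplet called as a cell, ahead of their own filters. No column was left unmapped to a sample. A 3′ count rises with transcripts and not with gene length, and reads shared by paralogs can be lost. The genes and lists were chosen with earlier results of these data known.

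Cells with more than 316 detected genes and under 5% of counts on 13 mitochondrial genes were kept, which left 15627 of the droplets deposited. They were normalized with SCTransform (R 4.3.3, Seurat 5.3.0, sctransform 0.4.2), where library entered as a batch term, and 2977 of the 3000 most variable genes, without 23 interferon genes, were reduced by irlba 2.3.5.1 to 20 principal components. The 20-neighbour graph was clustered at resolution 0.3 into 10 clusters. A cluster was named where at least 50% of a marker list was raised 1.5-fold and found in at least 10% of its cells, so classes may differ from those of the study. Scrublet (scanpy 1.11.5) called 1, 0 and 1 doublets at Ctrl, 3 dpa and 7 dpa, too few to have worked, and none was removed. As an alternative the 216, 137 and 371 cells with the highest scores were.

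Levels are UMIs per 10000 of a class pooled, for groups of at least 50 cells, with exact Poisson intervals. Ratios have exact conditional intervals and shares Clopper-Pearson intervals, all at 95%, computed with Python 3.11.15, scipy 1.17.1, numpy 2.4.6 and pandas 2.3.3. The ratio code was run on simulated Poisson counts, which its intervals assume. That run cannot show that the intervals hold for counts as uneven between cells as those of the effectors. The 2-fold mark was read for genes with at least 20 UMIs over both groups. A count of 0 was set to a floor of 3 UMIs for a bound. The UMI total of a cell affects whether a gene is detected in it, so shares were compared after thinning to 1800 UMIs. With 1 library per condition, no p-value was computed.

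The text names all 10 members, up to 3 genes of each other pathway list, those with most UMIs, and the 5 genes with the best correlated profile (at least 200 UMIs, pseudocount 0.01). TMM factors came from edgeR 4.0.16. Alternatives were a mitochondrial limit of 10%, all variable genes kept in clustering, resolutions of 0.2 and 0.5, log normalization, no batch term, doublet scores, means over cells, TMM, other totals, a minimum of 50 UMIs, other thinning depths, and cells with leukocyte UMIs left out.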

Additional observations from a re-analysis of the deposited data

Results flagged for a closer look

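The stat1a ratio of 3 dpa over Ctrl was 2.11 in epithelial-like and 0.892 in mesenchymal-like cells. That of 7 dpa over Ctrl was 1.76 and 0.754, so the libraries differed in opposite directions in the 2 pooled classes. Within the mesenchymal-like class, the clusters did not all go the same way. The irf9 ratio of 7 dpa over Ctrl was likewise 1.67 in epithelial-like and 0.707 in mesenchymal-like cells. Neither difference between classes was tested, since there is 1 library per condition.

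Effectors were also found in the droplets that the filters left out, most of which had 5% or more mitochondrial counts. They were at 3.86 UMIs per 10000 in 485 such droplets at 3 dpa and at 1.22 in 378 at 7 dpa, against 0.365 in 186 at Ctrl. The summed regulators were at 3.82, 3.62 and 3.26 there.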

How the results depend on the processing

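No paired analysis was possible because each condition had 1 library, and for the same reason no library could be left out. Of 136 values for the counts, medians and shares under 14 alternatives, 112 stayed close to the reported value and none changed direction. Of 476 ratios of single members, 376 stayed close, 100 moved, none reversed and 21 crossed the 2-fold mark. In epithelial-like cells the median log2 ratio of the regulators, 2.17, was 1.42 with all variable genes kept in the clustering and 1.40 with log normalization. The share of these cells with at least 2 effectors, 17.8%, was 15.4% with all variable genes, 15.4% at resolution 0.2, 15.1% with no batch term, 12% after thinning to 900 UMIs and 22.8% after thinning to 3600. The share with a regulator UMI was 52.2% and 89.8% at these depths in cells with at least 2 effectors, and 28.8% and 64.4% in cells with none. In mesenchymal-like cells log normalization gave 4 members higher at 3 dpa and 4 lower at 7 dpa than at 3 dpa, in place of 8 and 8. Rsad2 and mxb had too few UMIs in that setting to be counted. The effectors' median in mesenchymal-like cells, 4.93, was 2.01 with log normalization, over isg15, mxa and ifi45 only, and 3.95 with no batch term. The regulators' median, 1.46, was 0.39 with all variable genes, 0.29 with log normalization, 1.18 with no batch term and 1.16 as a mean over cells. The share with at least 2 effectors, 11.3%, was 7.43% with all variable genes, 2.91% with log normalization, 8.69% with no batch term, 7.18% at 900 UMIs and 16.1% at 3600. Fewer UMIs per cell lower the chance of detecting a gene, and the causes of the other moves were not tested. TMM took the median of all genes for 3 dpa over Ctrl in epithelial-like cells from 0.37 to 0.24, and for 7 dpa over 3 dpa from -0.25 to 0.03.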

Other observations

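Cardiomyocyte-like cells at 3 dpa numbered 39, below the minimum for a class, and held 388 effector UMIs, of which 264 came from 1 cell, with any effector in 15 cells. At Ctrl and 7 dpa these cells held 17 and 10 effector UMIs.

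When clusters were drawn at resolution 0.5, a mesenchymal-like cluster of 314 cells (10, 96 and 208 at Ctrl, 3 dpa and 7 dpa) had CR318588.1, CR318588.3 and ifi45 as its leading genes. Ifi45 was not used in the clustering. Lgals17, next among the leading genes and with a profile like the effectors, was not on the lists that were left out. A cluster with the same 3 leading genes held 553 cells (3, 147 and 403) with no batch term.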
